A study of Mus musculus with 2 samples.

Results

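Transcripts of p53 targets and p53 regulators were compared between whole embryos proper of mice at E8.5 (embryonic day 8.5), 1 pool homozygous for a mutation of mDom (mDom-/-, 45 embryos) and 1 wild-type pool (42 litter-matched embryos). The set holds 34 genes chosen by symbol for their place in the p53 pathway, with earlier results of these data known. Of these, 29 had a probe on the array, among 18069 genes with a probe in all, and the 29 genes were read by 33 probes, none shared with another gene. No probe was listed for Trp53, Bax, Eda2r, Gdf15 and Dusp11, so p53 mRNA itself is not reported here. mDom (mDomino, p400) is the submitters' name for the gene now called Ep400, which encodes the ATPase of the TIP60/p400 chromatin-remodelling complex. The labels name no allele beyond mDom-/-, no strain and no treatment.

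p53, encoded by Trp53, is a transcription factor that is held at a low level by the ubiquitin ligase Mdm2 and kept inactive by the related protein Mdm4. After DNA damage or other stress it accumulates and activates genes for cell cycle arrest, cell death, repair and metabolic adjustment, among them Mdm2 and Ppm1d, which act back on p53. In mouse embryos loss of Mdm2 or Mdm4 is lethal unless p53 is lost too. In human fibroblasts p400 is known to hold down CDKN1A, the p21 gene. How the transcripts of this pathway stand in mDom-/- embryos is the question taken up here.

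p53 binds DNA at a pair of half-sites, and the 250 bases before the start of 5 members are shown because they hold the best matches to that motif among members with a probe, or, for Mdm2, because of the gene's role and value. In the capitals, Ccng1, Cdkn1a, Gadd45a and Sesn1 have a p53 full site and Mdm2 has 1 half-site. The sequences run 5′ to 3′ and are RefSeq's for GRCm38.p6. They lie at chr11:40755287-40755536, minus strand, for Ccng1, chr17:29090729-29090978, plus strand, for the upstream of the starts listed for Cdkn1a, chr6:67037408-67037657, minus strand, for Gadd45a, chr10:41887189-41887438, plus strand, for the downstream of both starts of Sesn1, and chr10:117710759-117711008, minus strand, for Mdm2.
Ccng1: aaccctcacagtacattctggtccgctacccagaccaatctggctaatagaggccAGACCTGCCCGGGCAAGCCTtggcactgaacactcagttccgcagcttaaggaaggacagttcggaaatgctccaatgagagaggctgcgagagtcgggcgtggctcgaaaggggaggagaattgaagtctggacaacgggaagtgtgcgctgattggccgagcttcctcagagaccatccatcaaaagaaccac
Cdkn1a: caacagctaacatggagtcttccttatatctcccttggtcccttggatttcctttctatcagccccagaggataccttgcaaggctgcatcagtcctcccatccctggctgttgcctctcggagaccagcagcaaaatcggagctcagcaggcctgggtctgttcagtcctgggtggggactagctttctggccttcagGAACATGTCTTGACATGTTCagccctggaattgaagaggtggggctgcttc
Gadd45a: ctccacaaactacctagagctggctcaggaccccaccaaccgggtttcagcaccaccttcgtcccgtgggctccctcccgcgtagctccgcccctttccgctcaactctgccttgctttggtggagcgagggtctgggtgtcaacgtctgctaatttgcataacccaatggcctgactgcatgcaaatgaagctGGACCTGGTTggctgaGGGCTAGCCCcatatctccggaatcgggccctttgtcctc
Sesn1: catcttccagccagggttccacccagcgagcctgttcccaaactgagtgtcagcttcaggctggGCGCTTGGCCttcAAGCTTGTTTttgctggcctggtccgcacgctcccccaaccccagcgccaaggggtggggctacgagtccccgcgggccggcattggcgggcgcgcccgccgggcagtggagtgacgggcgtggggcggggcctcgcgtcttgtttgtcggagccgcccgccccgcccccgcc
Mdm2: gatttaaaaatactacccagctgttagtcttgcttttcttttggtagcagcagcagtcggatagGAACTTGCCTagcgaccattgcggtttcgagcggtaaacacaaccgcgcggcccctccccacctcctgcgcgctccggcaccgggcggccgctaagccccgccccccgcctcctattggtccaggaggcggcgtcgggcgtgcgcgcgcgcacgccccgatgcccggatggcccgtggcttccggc

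The motif searched was the p53 half-site consensus, which is 10 bases long and reads the same on both strands. A full site was a pair of them at most 13 bases apart, with the C and G of both cores in place and at most 2 mismatches in all. Windows ran from 250 bases before to 50 bases after each start. The Ccng1 site has 1 mismatch and no spacer, and lies 195 to 176 bases before the start. That of Cdkn1a also has 1 mismatch and no spacer, and its last base lies 32 bases before the upstream start. Another Cdkn1a half-site with no mismatch begins 73 bases before that start and is left in lower case. It also pairs, with no mismatch, with the first half-site of the marked site within the spacing allowed. Where several pairs passed, the pair with the shortest spacer was marked. The window at the other Cdkn1a start held no half-site. Gadd45a has 2 mismatches and a spacer of 6 bases, and Sesn1 has 2 mismatches and a spacer of 3. A half-site with no mismatch was found in 11 of the 26 members with a RefSeq window (42.3%), against 9.55% of 27025 genes in that table. Full sites were found in 5 of the 26 (19.2%), against 4.71% of all genes, the remaining one being Bax, which has no probe here. Members were chosen as known p53 targets, so these shares describe the list and are not evidence from the arrays. The windows of Phlda3, Sesn2, Bbc3 and Ddit4 held no half-site, and Pmaip1, Perp and Zmat3 were among the members with no window in the table. Mdm2 is known to have a second, p53-responsive promoter in its first intron, which is not used here.

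Each intensity below is a multiple of its array's median. Values were raised to a floor of 0.541, the higher of the 40th percentiles of both arrays, before the log2 ratio (mDom-/- minus wild-type) was taken. A ratio with 1 array below the floor is a bound, written "at least N-fold". Each pool was hybridised to 1 array, so the comparison has no replicate and no test, and precision is limited by the number of arrays. As a yardstick, the log2 ratio of a single probe had an SD of 0.25 among probes of the same gene (1301 genes, 2 probes each). That SD says nothing of how pools or embryos vary. A gene was called at least 2-fold apart by size alone.

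Both probes of Ep400 lay below the floor on both arrays, at -0.029 and 0.071 in the mDom-/- pool and at 0.215 and 0.470 in the wild-type pool, so the labels could not be checked on it. Of 8 marker genes of embryonic tissues, 6 were measured on both arrays, with a median log2 ratio of -0.01. Meox1, Nkx2-5, Twist1 and Pax3 lay within the SD between probes, while Foxa2 was at 0.36 and Kdr at -0.29. Sox2 was below the floor on both arrays and T had no listed probe. With values below the floor raised to it, the summed signal of 5 red cell markers was 31.3 in the mDom-/- pool and 341.1 in the wild-type pool, with all 5 lower. For 6 compared visceral endoderm and yolk sac markers it was 535.6 and 344.6 in mDom-/- and wild-type, with 3 higher and 3 lower. For 3 compared trophoblast and decidua markers it was 20.03 and 17.4. In mDom-/- and wild-type Prl8a2 read 12.3 and 11.1, Hand1 4.77 and 4.26, and Ascl2 2.97 and 2.10. The trophoblast marker Tpbpa was below the floor on both arrays. So were Ptprc, Adgre1 and Lyz2 of the macrophage and leukocyte list, which had no compared gene. The part of these cell types in the values below was not tested. In whole embryos fewer cells of a type and less RNA per cell cannot be told apart.

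Across the 28 compared members the p53 set leaned higher in the mDom-/- pool, without moving as a block. Their median log2 ratio was 0.16, against -0.00358 over all 13136 compared genes, and 17 members were above 0 and 11 below, where 49.5% of all compared genes were above 0. At least 2-fold higher were 3 members, Pmaip1, Ccng1 and, as a bound, Sesn2, or 10.7% of the 28, against 0.845% of all compared genes. At least 2-fold lower was 1 member, Mdm2, also a bound, where 0.929% of all compared genes were. The 28 include 6 bounds, whose direction is set by which array lies above the floor. For the 22 members above the floor on both arrays the median was 0.18, with 14 above 0 (63.6%, against 49.3% of genes measured on both). Of these 22, 4 were at least 1.5-fold higher (18.2%), against 3.22% of genes measured on both arrays, and 2 (Pmaip1 and Ccng1) at least 2-fold higher, against 0.545%. Among them 1, Perp, was at least 1.5-fold lower, against 3.41%. With the bounds, 6 of the 28 were at least 1.5-fold higher and 2 lower, against 4.08% and 4.35% of all compared genes. In 11 of the 22 the log2 ratio was smaller than the SD between probes, and of the others 8 were above it and 3 below. Of all 11926 genes measured on both arrays, 7909 lay within it, 1891 above and 2126 below. The 3 members below it include Sesn1, which is counted by its brighter probe although its probes disagree in direction.

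**Figure D1:**
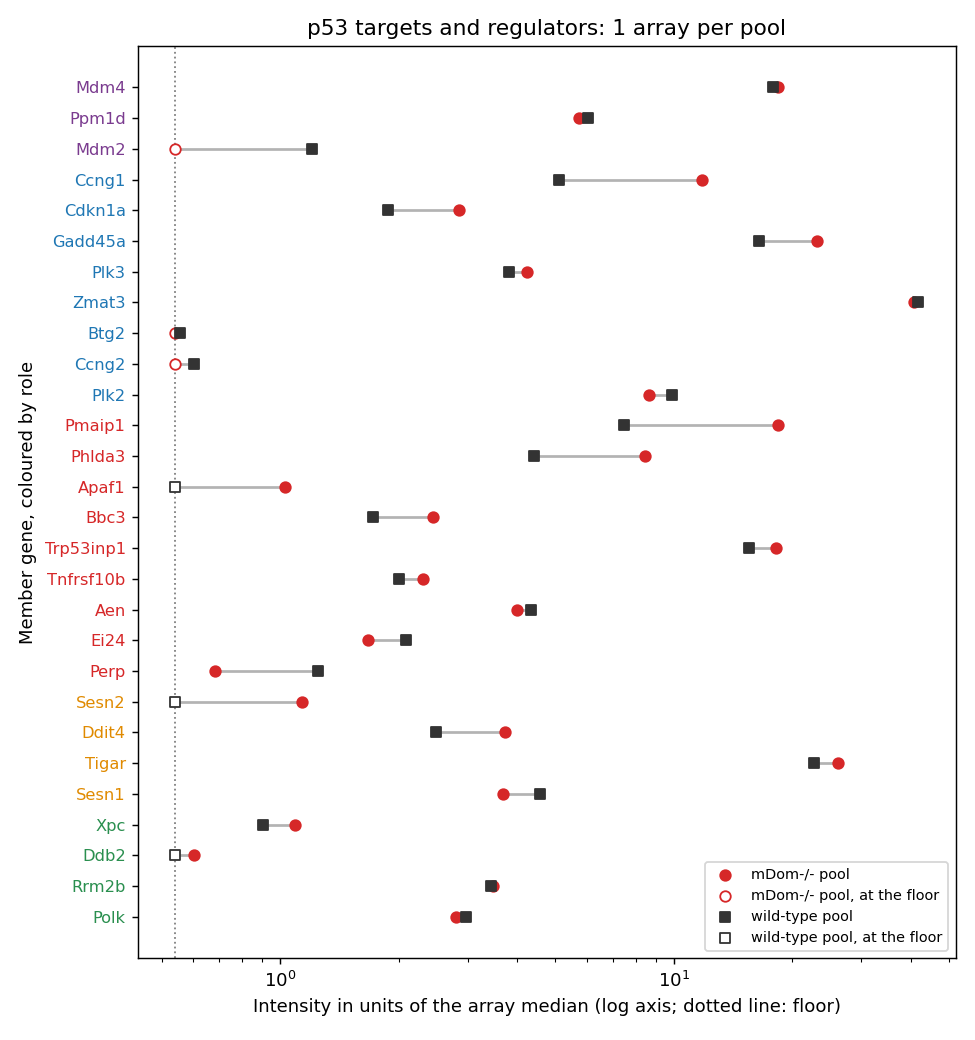
Intensity of each compared member on the mDom-/- array (circles) and the wild-type array (squares), in units of the array median on a log axis, with names coloured by role and open symbols for values raised to the floor of 0.541. Pmaip1 (18.4 in mDom-/- and 7.49 in wild-type), Ccng1 (11.8 and 5.12) and Phlda3 (8.47 and 4.41) show the widest gaps with both arrays above the floor, and Mdm2 shows the widest gap in the other direction.

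Among the genes that act back on p53, no member was higher by more than the SD between probes. Mdm2, the ubiquitin ligase that marks p53 for degradation and is itself a p53 target, read 0.506 in the mDom-/- pool and 1.20 in the wild-type pool. The mDom-/- value lies just under the floor, so Mdm2 was at least 2.23-fold lower. Both readings are dim, in the range where ratios spread widest, and Mdm2 had 1 probe. Mdm4, the partner of Mdm2 that blocks the activation domain of p53, read 18.4 in mDom-/- and 17.8 in wild-type, a log2 ratio of 0.05. Its second probe read 2.37 and 2.44 in mDom-/- and wild-type, a log2 ratio of -0.04, so both probes lay within the yardstick. Ppm1d, the phosphatase Wip1 that dephosphorylates p53 and the damage kinases, read 5.73 in mDom-/- and 6.04 in wild-type, a log2 ratio of -0.08.

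Arrest genes measured on both arrays divided into a higher group and a group near 0, and 2 more were bounds. Ccng1, whose product cyclin G1 recruits the phosphatase PP2A and is among the most p53-responsive genes in mouse, read 11.8 in the mDom-/- pool and 5.12 in the wild-type pool. This is 2.31-fold higher and the 35th highest of the 11926 genes measured on both arrays. Cdkn1a, which encodes the CDK inhibitor p21, read 2.84 in mDom-/- and 1.88 in wild-type, 1.51-fold higher and 375th from the top. Gadd45a, a stress gene whose product binds PCNA and kinases of the MAPK pathway, read 23.1 in mDom-/- and 16.5 in wild-type, 1.40-fold higher. Log2 ratios had a robust SD of 0.26 among genes of the brightness of Cdkn1a, 0.22 among those of Ccng1 and 0.19 among those of Gadd45a, against log2 ratios of 0.59, 1.21 and 0.49.

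The other 5 arrest genes stayed within the SD between probes or were bounds of unknown size. Plk3, a stress-activated polo-like kinase, read 4.23 in mDom-/- and 3.81 in wild-type, and its second probe was below the floor on both arrays. Plk2, a polo-like kinase of the same branch, read 8.63 in mDom-/- and 9.91 in wild-type, a log2 ratio of -0.20. Zmat3, an RNA-binding zinc finger protein, was bright and nearly equal, at 40.8 in mDom-/- and 41.8 in wild-type. The atypical cyclin gene Ccng2, which is better known as a FOXO target, read 0.030 in mDom-/- and 0.602 in wild-type, at least 1.11-fold lower. Btg2, an antiproliferative cofactor of mRNA deadenylation, read 0.209 in mDom-/- and 0.556 in wild-type, at least 1.03-fold lower. For both the wild-type value lies just above the floor, so the arrays set almost no limit on the size of the difference. With the 25th percentile as floor the log2 ratios of Ccng2 and Btg2 were -1.33 and -1.22. With no floor they were -4.33 and -1.41.

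**Figure D2:**
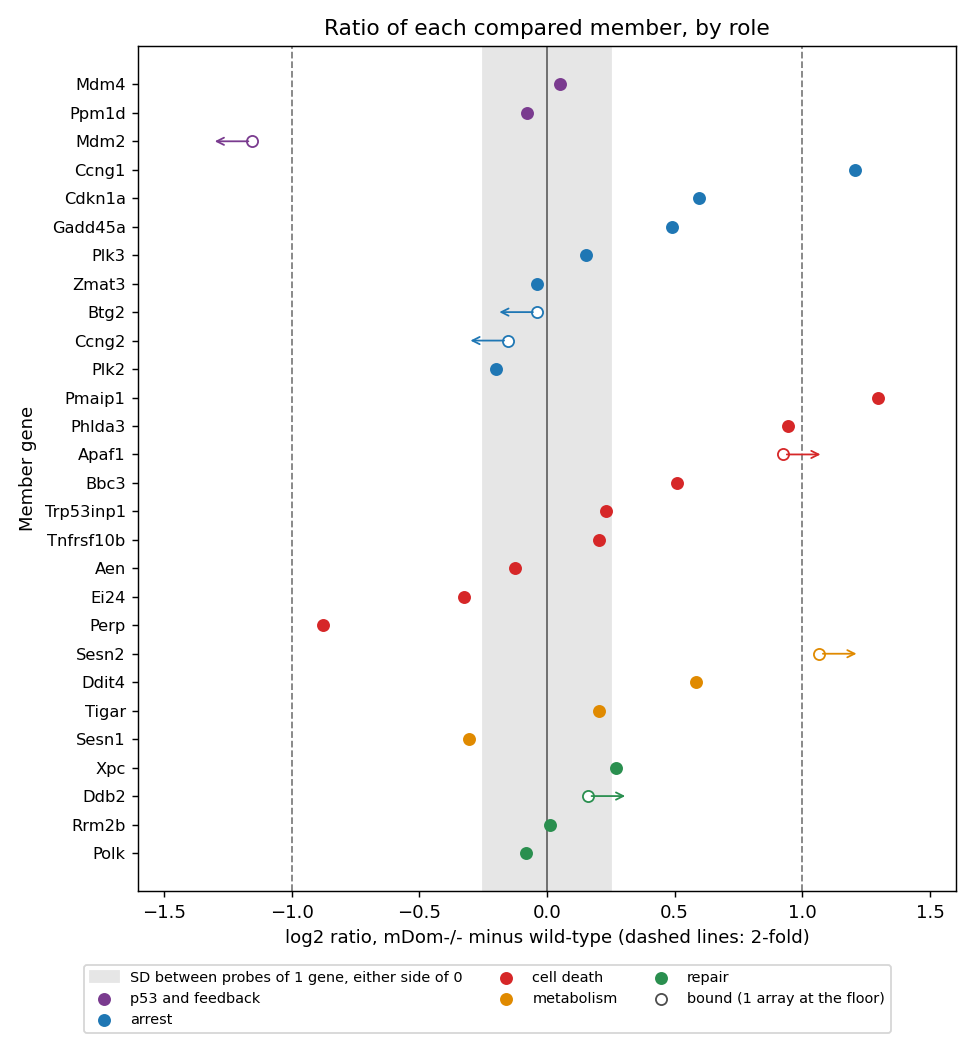
log2 ratio (mDom-/- minus wild-type) of each compared member, grouped by role, with open points and arrows for bounds, dashed lines at 2-fold and a grey band for the SD of 0.25 between probes of 1 gene. Each of the arrest, cell death and metabolism groups holds members beyond the band on the high side, and the repair group holds Xpc just beyond it. Perp, Ei24 and, by the brighter of its disagreeing probes, Sesn1 lie beyond the band on the low side. The p53 feedback genes lie in the band or, for Mdm2, far below it.

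Cell death genes had the highest member and the lowest member measured on both arrays. Pmaip1, the BH3-only protein Noxa that antagonises Mcl1 at mitochondria, read 18.4 in the mDom-/- pool and 7.49 in the wild-type pool, 2.46-fold higher and 23rd of 11926. Bbc3, the BH3-only protein Puma that binds all prosurvival Bcl2 proteins, read 2.45 in mDom-/- and 1.72 in wild-type, 1.42-fold higher. Phlda3, a pleckstrin homology protein that competes with Akt for membrane lipids, read 8.47 in mDom-/- and 4.41 in wild-type, 1.92-fold higher and 81st of 11926. Apaf1, the scaffold of the apoptosome, read 1.03 in mDom-/- and -0.179 in wild-type, at least 1.90-fold higher. With the 25th percentile as floor the log2 ratio of Apaf1 was 2.10, and with no floor it had no ratio because the wild-type value is negative.

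Death receptors and the remaining cell death genes differed less. The Trail receptor gene Tnfrsf10b read 2.3015 in mDom-/- and 2.0002 in wild-type, a log2 ratio of 0.20, and Fas was below the floor on both arrays, at 0.192 in mDom-/- and 0.346 in wild-type. Trp53inp1, a nuclear cofactor that promotes p53 phosphorylation, read 18.2 in mDom-/- and 15.5 in wild-type, a log2 ratio of 0.23. Aen, a p53-induced nuclease, had log2 ratios of -0.13 and -0.16 on its 2 probes. The ratios of Tnfrsf10b, Trp53inp1 and Aen lay within the SD between probes. Ei24, an endoplasmic reticulum protein tied to autophagy, read 1.67 in mDom-/- and 2.09 in wild-type, a log2 ratio of -0.33. Ei24 is in the dimmest quartile of genes measured on both arrays, whose robust SD of 0.35 is larger than this ratio.

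Perp, a p63 target as well as a p53 target that encodes a tetraspan protein of desmosomes, read 0.680 in the mDom-/- pool and 1.25 in the wild-type pool, 1.84-fold lower. It was the 120th lowest of the 11926 genes. Perp belongs to the dimmest quartile of genes measured on both arrays, whose robust SD is 0.35 on the log2 scale. Trp63, the p53 relative that is known to drive Perp in stratified epithelia, had probes that disagreed. One read 0.176 in mDom-/- and 1.32 in wild-type, at least 2.44-fold lower, and the other read 0.708 and 0.603 in mDom-/- and wild-type, so no direction is given for Trp63. Trp73, the other relative, read 0.330 in mDom-/- and 0.576 in wild-type, at least 1.07-fold lower.

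Of the 4 compared metabolic targets, 3 had a ratio above 0, and 1 of them, a bound, was past 1.5-fold, where 4.08% of all compared genes were at least 1.5-fold higher. Ddit4, the mTORC1 inhibitor Redd1 that also responds to hypoxia and glucocorticoids, read 3.72 in the mDom-/- pool and 2.49 in the wild-type pool, a log2 ratio of 0.58, just short of the 1.5-fold line. Sesn2, a leucine sensor upstream of mTORC1 that Atf4 also drives, read 1.13 in mDom-/- and 0.503 in wild-type, at least 2.09-fold higher. Tigar, a fructose bisphosphatase that lowers glycolytic flux, read 26.1 in mDom-/- and 22.7 in wild-type, a log2 ratio of 0.20, within the yardstick.

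Sesn1, the sestrin most tied to p53, gave opposite answers on its 2 probes. The probe that is brighter on average read 3.69 in the mDom-/- pool and 4.56 in the wild-type pool, a log2 ratio of -0.31. The other probe read 3.95 in mDom-/- and 0.279 in wild-type, a log2 ratio of 2.87 as a bound. The gene took the first value, and the mean over both probes is 1.28. RefSeq lists 2 starts for Sesn1, and the p53 full site shown above lies before the downstream one. The sources used here do not say which transcript each probe reads, and no direction is given for Sesn1.

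Of the 3 repair genes measured on both arrays, 2 lay within the SD between probes and Xpc just beyond it, and Ddb2 was a bound. Rrm2b, the p53-induced subunit of ribonucleotide reductase, read 3.47 in the mDom-/- pool and 3.44 in the wild-type pool. Polk, a translesion DNA polymerase, read 2.79 in mDom-/- and 2.96 in wild-type. Xpc, which recognises lesions in nucleotide excision repair, read 1.09 in mDom-/- and 0.905 in wild-type, a log2 ratio of 0.27. This is smaller than the robust SD of 0.35 in the dimmest quartile of genes measured on both arrays, to which Xpc belongs. Ddb2, the partner of Xpc in recognising ultraviolet damage, read 0.605 in mDom-/- and 0.234 in wild-type, at least 1.12-fold higher. Its log2 ratio was 1.34 with the 25th percentile as floor and 1.37 with no floor, so the size of its difference is not known. Ddb2 and Xpc are known as p53 targets in human cells.

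**Figure D3:**
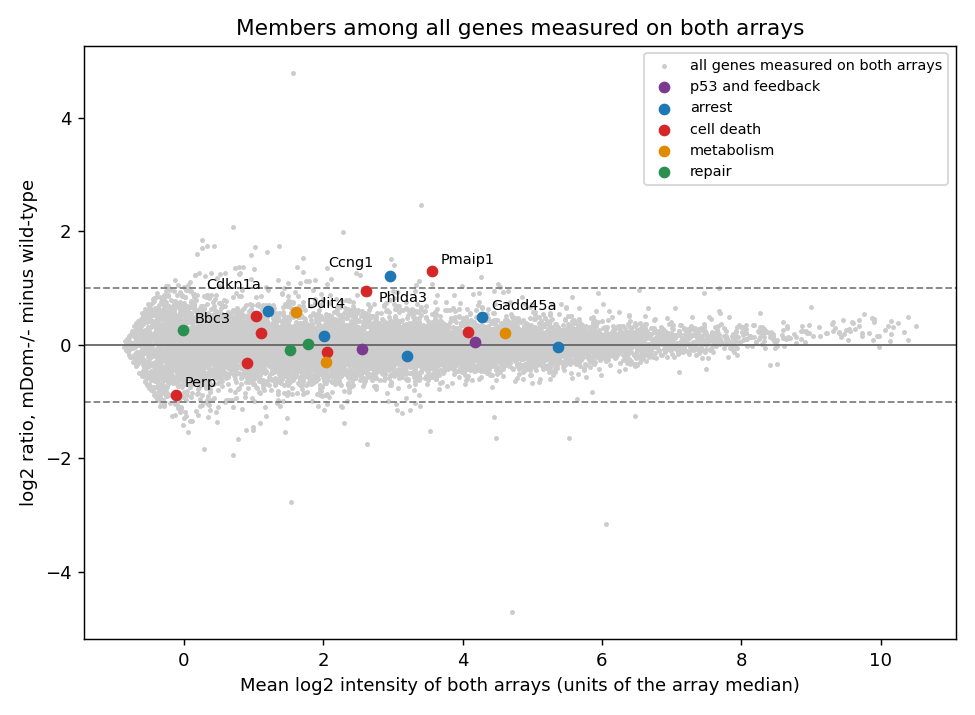
log2 ratio (mDom-/- minus wild-type) against mean log2 intensity for the 11926 genes measured on both arrays (grey) and the 22 members among them (coloured by role), with dashed lines at 2-fold. Pmaip1, Ccng1 and Phlda3 sit at the upper edge of the cloud at middle brightness, Cdkn1a, Ddit4 and Bbc3 lie above 0 among dimmer genes, and Perp lies low at the dim end.

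Members with both arrays above the floor were found at every brightness, while the 6 bounds, Sesn2 and Apaf1 among them, are dim by construction. Of the 22 members measured on both arrays, 3 fell in the dimmest quartile of all such genes, 10 in the next, 6 in the third and 3 in the brightest. Their median log2 ratios were -0.33, 0.08, 0.59 and 0.20 in that order, and 5 of the 6 in the third quartile were above 0. Pmaip1, Ccng1 and Phlda3 are all in that quartile, where 2-fold higher genes made up 0.302% and 2-fold lower genes 0.268%. By role, the medians over compared members were 0.39 for metabolism (4 genes), 0.23 for cell death (9 genes), 0.09 for repair (4 genes), 0.06 for arrest (8 genes) and -0.08 for p53 feedback (3 genes). These include bounds, and without them the order differs: 0.32 for arrest (6 genes), 0.22 for cell death (8 genes), 0.20 for metabolism (3 genes), 0.01 for repair (3 genes) and -0.01 for p53 feedback (2 genes). Groups this small have overlapping ranges and were not compared by a test.

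**Figure D4:**
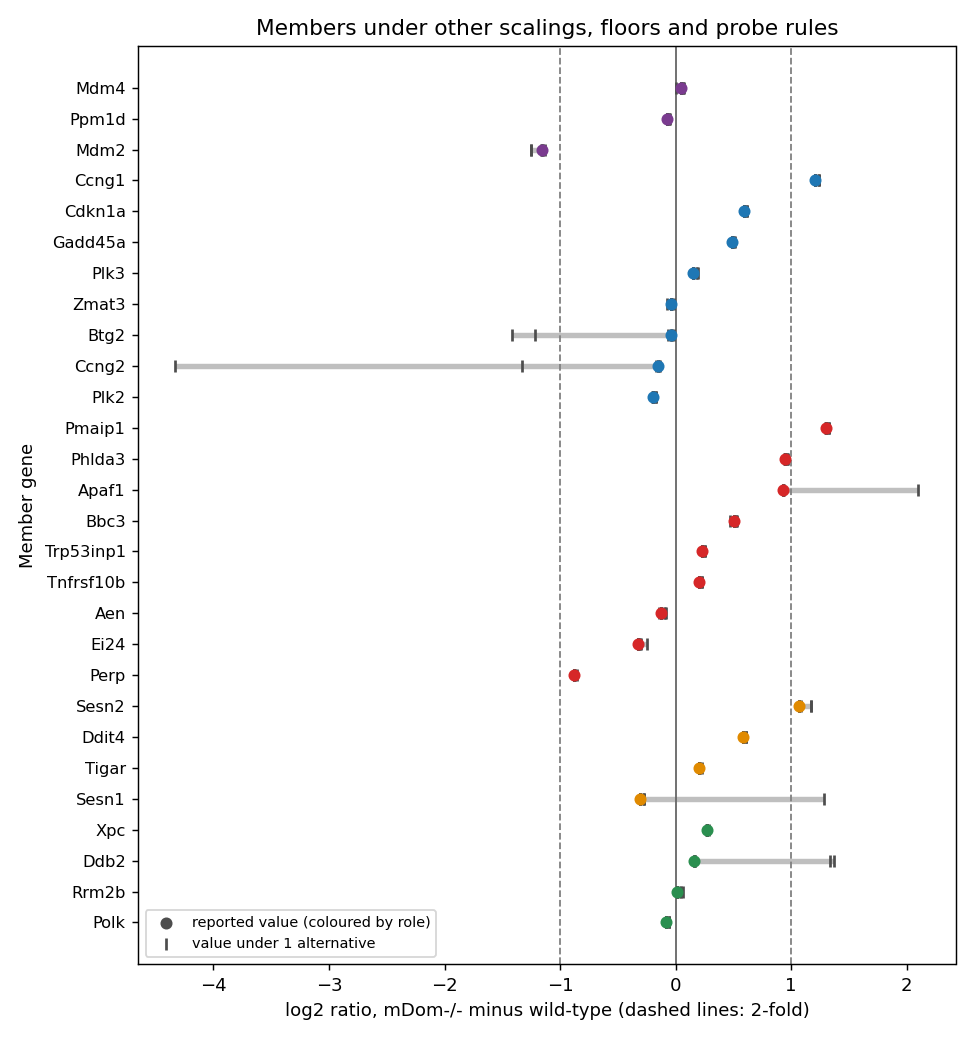
log2 ratio (mDom-/- minus wild-type) of each compared member as reported (dots, coloured by role) and under each alternative scaling, floor or probe rule (ticks), with dashed lines at 2-fold. Members measured on both arrays barely move apart from Sesn1, which reaches 1.28 when its probes are averaged, whereas the bounds of Ccng2, Btg2, Apaf1 and Ddb2 stretch once the floor is lowered or dropped.

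Compared kinases upstream of p53 had ratios below 0, more of them inside the yardstick than beyond it, and 3 at least 1.5-fold lower. Of 10 kinases that phosphorylate p53 or Mdm2 or relay damage, 9 were compared and all 9 were below 0, where 50.5% of compared genes were. Their median log2 ratio was -0.25, with 5 of the 9, Atm among them, within the SD between probes and 4 below it. Of the 11926 genes measured on both arrays, 7909 lay within it and 2126 below. At least 1.5-fold lower were 3 of the 9, Mapk8, Csnk1d and Prkdc, where 4.35% of all compared genes were. The lowest kinase was Mapk8, the stress kinase Jnk1, at 0.885 in the mDom-/- pool and 1.83 in the wild-type pool, a log2 ratio of -1.05. Mapk8 had 1 probe and belongs to the dimmest quartile of genes measured on both arrays, whose robust SD is 0.35. The highest was Chek2, a checkpoint kinase, at 8.06 in mDom-/- and 8.15 in wild-type. Between these lay the damage kinases Atm (-0.25) and Prkdc (-0.63) and the replication checkpoint kinase Chek1 (-0.30), while Atr was below the floor on both arrays.

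Cofactors and modifiers of p53 were near 0. Of 20, 18 were compared, 6 above 0 and 12 below, with a median of -0.09, where 50.5% of all compared genes were below 0. None was 1.5-fold apart, which is near the 4.08% higher and 4.35% lower of all compared genes. The highest was Ing1, a chromatin reader linked to p53, at 0.48, and the lowest was Kat5, the TIP60 acetyltransferase that acetylates p53 and belongs to the complex of p400, at 0.637 in mDom-/- and 0.798 in wild-type, a log2 ratio of -0.33.

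Further p53 targets, 40 genes outside the set of 34, had small ratios. Of 28 compared, 18 were above 0 and 10 below, where 49.5% of all compared genes were above 0, with a median log2 ratio of 0.14, and none was 1.5-fold apart, a rule that 4.08% of all compared genes passed upward and 4.35% downward. The highest was Tgfa, a growth factor gene, at 0.40, and the lowest was Notch1, at 4.60 in mDom-/- and 6.73 in wild-type, a log2 ratio of -0.55. Of all 11926 genes measured on both arrays, 7909 lay within the SD between probes, 1891 above it and 2126 below. Of the 26 further targets among them, 14 lay within it, 7 above it and 5 below. Those above it include Siva1, a cell death gene (0.35), and Pml, a nuclear body gene (0.32), and those below it include the repair nuclease gene Ercc5 (-0.36) and the caspase gene Casp6 (-0.29). Among 19 compared cell cycle genes that p53 is known to lower through p21 and the DREAM repressor complex, 13 were below 0 and 6 above, where 50.5% of all compared genes were below 0, with a median of -0.08. Of the 19, 13 lay within the SD between probes and the other 6 below it. Of the 11926 genes measured on both arrays, 2126 were below it. None of the 19 was 1.5-fold apart. The mitotic kinase gene Plk1 was the lowest, at -0.55, and the transcription factor gene Foxm1 the highest, at 0.20.

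**Figure D5:**
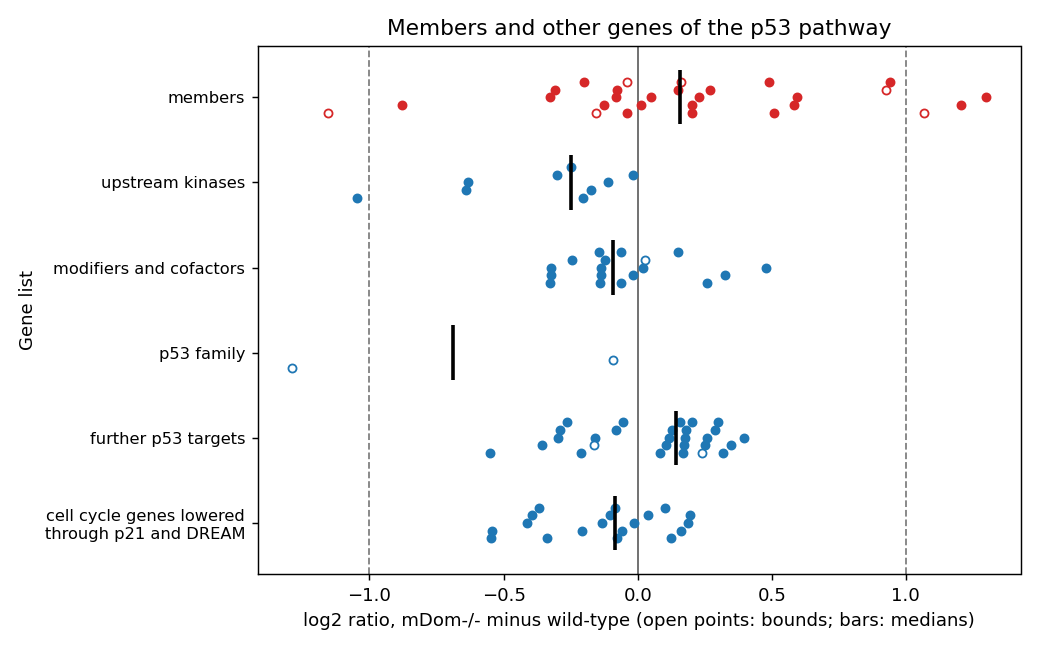
log2 ratio (mDom-/- minus wild-type) of each compared gene in the 34-gene set (red) and in 5 other p53 pathway lists (blue), with open points for bounds, black bars for medians and dashed lines at 2-fold. The medians are 0.16 for the set, 0.14 for further targets, -0.25 for upstream kinases and -0.08 for cell cycle genes. For modifiers and cofactors the median is -0.09, and for the p53 family, with 2 bounds only, it is -0.69.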

How the data were processed

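Total RNA of 1 mDom-/- pool and 1 wild-type pool was read on 1 array each (CodeLink Expression Bioarray, biotin-UTP label, images analysed with the CodeLink System Software, per the labels). The deposited values are linear spot intensities with a median of 1.05 on both arrays, so the authors had scaled them. The sources used here do not give what they were scaled to, the background correction or the software version. The code -9999 was read as no value.

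Of 36227 probes, 21615 had 1 symbol in the platform annotation, and 21487 of these matched the RefSeq table of GRCm38.p6 by Entrez identifier. Each array was divided by its median, floored and put on the log2 scale, and a gene took its probe with the highest mean. Of the 29 members with a probe, 28 were compared: 22 measured on both arrays and 6 as bounds. Fas was below the floor on both.

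Every member is accounted for. In the other p53 pathway lists, genes at least 2-fold apart and the highest and lowest were named, and others named were chosen after their values were seen. Members and lists were chosen with earlier results of these data known. The scaling and the log2 ratios were tested on simulated data with changes planted in bright probes only (Python 3.11.15, pandas 2.3.3, statsmodels 0.14.6). Bounds, the choice of a probe per gene, the SD between probes and the motif search were not tested in this way.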

Additional observations from a re-analysis of the deposited data

How the results depend on the processing

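The median log2 ratio of the members stayed between 0.10 (no floor) and 0.18 under all 9 alternative scalings, floors and probe rules, while the median over all genes stayed between -0.01 and 0.02. Counts of members past the size rule followed the floor and, through Sesn1, the probe rule. With the 25th percentile as floor 5 members were at least 2-fold higher and 3 lower, but so were 3.38% and 3.31% of all genes. With no floor 4 were at least 2-fold higher and 3 lower, against 7.34% and 6.91% of all genes. With the 60th percentile as floor, or with genes measured on both arrays only, 2 were at least 2-fold higher and 0 lower. The bounds of Sesn2 and Mdm2 are not compared there. With the mean over probes 4 were at least 2-fold higher, Sesn1 being added, and 1 lower. At 1.5-fold 6 were higher and 2 lower, and at 3-fold 0 were higher and 0 lower. Of 237 values of single compared members under alternatives, 229 moved by less than the SD between probes. The other 8 were of Apaf1, Btg2, Ccng2 and Ddb2, which are bounds, and of Sesn1, which is above 0 only when its probes are averaged. No member at least 2-fold apart turned its sign, and the 4 alternative scalings left the counts as reported. No paired analysis was possible because each group has 1 array. Readings near the floor limit what can be said of Mdm2, Sesn2, Apaf1, Ccng2, Btg2 and Ddb2.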
